A study of Mus musculus with 12 samples.

Results

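The organic ion and drug transporters described here were the protein-coding rows of 2 mouse kidney FPKM tables whose gene names begin with Slc22a, Slc47a, Slco, Abcb or Abcc and a digit, or are Abcg2. This rule, which uses names only, gave 62 genes of 22046 protein-coding rows and 54532 rows in all. All Slc22a and Slco genes were counted as uptake carriers, 39 in all (25 Slc22a and 14 Slco). For 5 of these Slc22a genes, namely Slc22a14, Slc22a15, Slc22a17, Slc22a18 and Slc22a23, this rests on the family name alone. By textbook role, 16 are efflux pumps (2 Slc47a, 13 Abcb and Abcc proteins of the plasma membrane, and Abcg2). The other 7 are neither (5 Abcb proteins of inner membranes, and 2 Abcc proteins that regulate potassium channels). FPKM is the number of fragments per kilobase of gene, scaled by a factor for its library.

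In the proximal tubule these carriers work in series. Uptake carriers of the basolateral membrane, mainly the organic anion and organic cation transporters of the Slc22a family, bring drugs, toxins and metabolites from blood into the cell, where organic anions enter in exchange for dicarboxylates. Efflux pumps of the luminal brush border, mainly Slc47a1 and ABC transporters, then pass them into urine, while other Slc22a carriers of the same border take back urate and carnitine.

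Whole kidneys of C57BL/6 mice were sequenced in 4 groups of 3 mice. After unilateral ureteral obstruction (UUO, a permanent ligation of the left ureter) β-catenin knockout mice were set against wild-type mice, and after unilateral ischemia-reperfusion injury (UIRI, a temporary clip on the left renal pedicle) CD44 knockout mice were set against wild-type mice. β-Catenin, the transducer of Wnt signals encoded by Ctnnb1, was deleted from floxed alleles by a Cre under the Ksp-cadherin promoter of tubule epithelium. The study describes the loss of the protein as clear in distal segments, and describes its reach into the proximal tubule in one place as covering most of it and in another as partial. All 12 mice carried an injury and none was a sham. The wild-type mice are not labelled as carrying Cre or floxed alleles, and the study describes the mice it purchased as young adult males. For the UIRI mice that it describes, its methods place the harvest in the second week from surgery, shortly after removal of the right kidney. It does not describe the CD44 knockout mice, so that this timing may not hold for the sequenced UIRI mice. The time from surgery for UUO is not given in the sources used here.

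The reads behind each library, recovered from the FPKM, numbered 15940405 to 20737443. The factor that scaled the FPKM was 0.908 to 1.007 times these reads in β-catenin knockout libraries, against 1.018 to 1.102 times in wild-type UUO libraries. It was 0.925 to 1.00 times in libraries labelled CD44 knockout, against 1.046 to 1.055 times in wild-type UIRI libraries. A smaller factor gives higher FPKM for the same reads. Ctnnb1 was at 84.7, 71.4 and 71.7 FPKM in β-catenin knockout kidneys, against 91.2, 86.7 and 98.5 FPKM in wild-type UUO kidneys (log2 fold change −0.28, adjusted p = 0.189). These values cover the whole gene and all cells of the kidney, so that the deleted exons were not seen apart. Cd44, the receptor for hyaluronan and osteopontin, was at 18.97, 11.97 and 13.9 FPKM in the kidneys labelled CD44 knockout, against 19.9, 16.3 and 17.8 FPKM in wild-type UIRI kidneys (log2 fold change −0.27, adjusted p = 0.339). The gene level did not bear out this label, and every direction given for this group is that of libraries labelled CD44 knockout. The kidney label held: Kap, a proximal tubule androgen-regulated protein, lay between 2598 and 13675 FPKM, while Alb, the defining hepatocyte transcript, was at or below 0.493 FPKM. Replicate 2 labelled CD44 knockout was the lowest of its group for 18 of 26 uptake genes tested, against at most 11 for any wild-type UIRI library. Replicate 3 of the β-catenin knockouts was the lowest of its group for 15 of 27, against 13 for wild-type UUO replicate 3. The median log2 fold change of all genes tested was 0.01 in UUO and 0.00 in UIRI.

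Transporter genes were higher in β-catenin knockout kidneys after obstruction more often than lower. Of the 43 genes that passed the filter of a mean of 0.5 FPKM, 12 were called higher at an adjusted p under 0.05 (limma), where 6.21% of all genes tested were called higher, and 1 was called lower, where 4.36% were. In 23 of the 43 all 3 knockout libraries lay above all 3 wild-type libraries (19.6% of all genes tested), and in 5 all lay below (15.9%). The 23 include Slc22a29, which passed the filter only through its knockout libraries. Among the 12 were Slc22a5, Slc22a6, Slc22a8, Slc22a13, Slc22a18, Slc22a22, Slco1a6, Slco4c1, Slc47a1, Abcc2 and Abcg2, and the 1 was Slco2a1. In whole kidneys, a change in the number of cells of a type and a change in RNA per cell cannot be told apart. When β-catenin knockout replicates 1, 2 and 3 were left out in turn, 4, 2 and 16 transporters were higher. For wild-type replicates 1, 2 and 3 the counts were 5, 3 and 8. Slc47a1 kept its call without any 1 of the 6, and of these only leaving out knockout replicate 3 kept the lower call of Slco2a1.

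In kidneys labelled CD44 knockout after ischemia, 8 of 41 transporter genes tested were called higher, where 4.02% of all genes were, and 0 were called lower, where 2.19% were. At an unadjusted p under 0.05 there was 1 lower transporter, Slco2b1, and limma's voom on the recovered reads called 11 higher and Slco2b1 lower. In 18 of the 41 all 3 libraries labelled CD44 knockout lay above all 3 wild-type libraries (19.1% of all genes tested), and in 0 all lay below (14.5%). Among the 8 were Slc22a2, Slc22a4, Slc22a5, Slc22a6, Slc22a23, Abcc2 and Abcg2. Slc22a5, Slc22a6, Abcc2 and Abcg2 were called in both comparisons, which share no library. The UIRI count depended on single libraries: without replicate 2 labelled CD44 knockout, 20 transporters were called higher, and without any 1 of the other 5 libraries, 0 were, with adjusted p values of the 8 genes between 0.0557 and 0.165. Under the filter in both comparisons were 19 of the 62 genes, and the highest value of any of them was 0.672 FPKM.

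**Figure D1:**
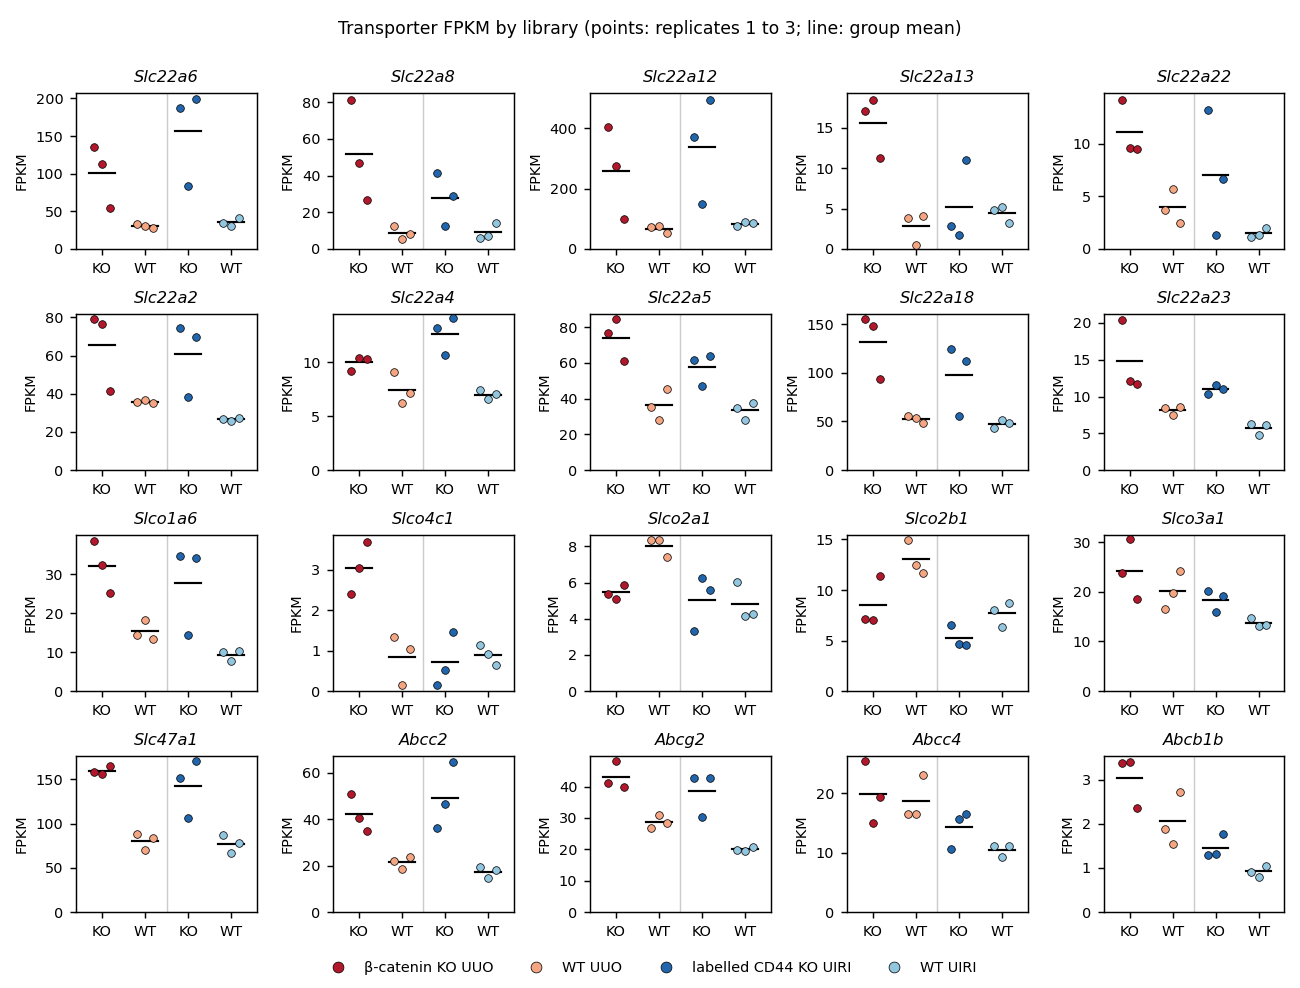
FPKM (vertical axes, from 0) of 20 transporters in each library of the 4 groups, knockout left of wild type for UUO and then for UIRI, with a line at each group mean. For Slc22a6 the β-catenin knockout points (54.5 to 136 FPKM) lie above the wild-type UUO points (27.5 to 33.0 FPKM), and the points labelled CD44 knockout (83.7 to 199 FPKM) lie above the wild-type UIRI points (30.96 to 41.4 FPKM).

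Among the organic anion carriers, the genes of the basolateral pair Slc22a6 (OAT1) and Slc22a8 (OAT3), which take up p-aminohippurate, diuretics and many antivirals, were both higher in UUO. Slc22a6 was at 136, 113 and 54.5 FPKM in β-catenin knockout kidneys, against 33.01, 30.4 and 27.5 FPKM in wild-type UUO kidneys (log2 fold change 1.61, standard error 0.32, adjusted p = 0.0248). It was at 187, 83.7 and 199 FPKM in kidneys labelled CD44 knockout, against 34.6, 30.96 and 41.4 FPKM in wild-type UIRI kidneys (log2 fold change 2.02, standard error 0.33, adjusted p = 0.0301). No knockout library of either comparison overlapped a wild-type one. Of single libraries left out only knockout replicate 3 kept the call in UUO (adjusted p = 0.00426, against 0.0612 to 0.0865 without each other library). Slc22a8 was at 81.2, 47.02 and 26.8 FPKM in β-catenin knockout kidneys, against 12.6, 5.25 and 7.90 FPKM in wild-type UUO kidneys (log2 fold change 2.39, standard error 0.42, adjusted p = 0.0193). This was the largest log2 fold change of any transporter tested there, and the call was lost without knockout replicate 2 (adjusted p = 0.0581) and without wild-type replicate 2 (adjusted p = 0.0730). After UIRI Slc22a8 was at 41.3, 12.6 and 28.8 FPKM in kidneys labelled CD44 knockout, against 5.82, 6.81 and 14.4 FPKM in wild-type kidneys, and the groups overlapped (log2 fold change 1.46, standard error 0.47, adjusted p = 0.106). Slc22a8 and Slc22a6 lie head to tail on chromosome 19, on the plus strand of GRCm38 at 8591254 to 8611834 and 8617996 to 8628299, with 6161 bases between them.

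Slc22a12 (URAT1), which reabsorbs urate across the luminal membrane, was the most abundant gene of this class. It was at 405, 274 and 97.9 FPKM in β-catenin knockout kidneys, against 72.6, 74.8 and 53.5 FPKM in wild-type UUO kidneys, with no overlap and no call (log2 fold change 1.73, standard error 0.48, adjusted p = 0.0613). Without knockout replicate 3 it passed (adjusted p = 0.00678). In kidneys labelled CD44 knockout Slc22a12 was at 370.2, 148 and 495 FPKM, against 74.8, 90.9 and 85.1 FPKM in wild-type UIRI kidneys, again without overlap (log2 fold change 1.84, standard error 0.41, adjusted p = 0.0507). It passed without replicate 2 labelled CD44 knockout (adjusted p = 0.00281). The lowest knockout library was replicate 3 in UUO and replicate 2 in UIRI, as for Slc22a6. Of the 75-base stretches of its transcript, 28.3% are also in Nrxn2, a gene on the other strand at 0.421 to 1.84 FPKM, and the strand setting of the counting is not stated. Slc22a13 (OAT10), a urate and nicotinate exchanger, was at 17.1, 18.4 and 11.3 FPKM in β-catenin knockout kidneys, against 3.81, 0.534 and 4.06 FPKM in wild-type UUO kidneys (log2 fold change 2.29, standard error 0.45, adjusted p = 0.0255). After UIRI the groups overlapped, with 2.80, 1.76 and 11.1 FPKM in kidneys labelled CD44 knockout, against 4.88, 5.24 and 3.26 FPKM in wild-type kidneys (log2 fold change −0.10, adjusted p = 0.925). The annotated gene Slc22a14 overlaps it on the same strand, and 28.7% of its 75-base stretches are shared with the pseudogene Slc22a13b-ps. In UUO the call of Slc22a13 was lost without either of knockout replicates 1 and 2 (adjusted p = 0.0778 and 0.0766).

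Slc22a22, a prostaglandin carrier known from mouse kidney, was at 14.1, 9.56 and 9.48 FPKM in β-catenin knockout kidneys, against 3.70, 5.69 and 2.44 FPKM in wild-type UUO kidneys (log2 fold change 1.32, standard error 0.26, adjusted p = 0.0251). The call was lost without knockout replicates 1 and 2 and wild-type replicate 1 (adjusted p = 0.0726, 0.0598 and 0.0726). After UIRI it was at 13.1, 1.29 and 6.61 FPKM in kidneys labelled CD44 knockout, against 1.17, 1.29 and 1.99 FPKM in wild-type kidneys, so that replicate 2 lay within the wild-type range (log2 fold change 1.35, adjusted p = 0.209). The rodent-specific carriers Slc22a28 and Slc22a30 had the same order of libraries labelled CD44 knockout. Slc22a28 was at 37.1, 6.74 and 20.1 FPKM in kidneys labelled CD44 knockout, against 5.76, 6.996 and 8.93 FPKM in wild-type UIRI kidneys. Slc22a30 was at 24.7, 3.71 and 17.4 FPKM in kidneys labelled CD44 knockout, against 3.77, 4.68 and 4.55 FPKM in wild-type UIRI kidneys. Both were uncalled in each comparison, and 44.8% of the 75-base stretches of Slc22a28 and 29.6% of those of Slc22a30 are shared with other genes, mainly with each other, so that reads may have been split between them. Slc22a7, the gene of OAT2, was at 6.58, 4.22 and 2.06 FPKM in β-catenin knockout kidneys, against 1.59, 0.813 and 2.32 FPKM in wild-type UUO kidneys (adjusted p = 0.116). Slc22a19, Slc22a26 and Slc22a29 were also tested there and uncalled, with log2 fold changes of 0.82, 0.32 and 0.82. Slc22a29 passed the filter in UUO, and Slc22a26 in UIRI, only through the knockout libraries. Slc22a20, the olfactory OAT6, and Slc22a27 stayed at or below 0.204 FPKM in every library. In all, 4 of 11 organic anion genes tested were higher in UUO (all 11 positive, median log2 fold change 0.98) and 1 of 10 in UIRI (9 positive, median 1.24). These positive counts and medians include Slc22a29 in UUO and Slc22a26 in UIRI, whose direction followed from the filter and is no finding.

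Of the organic cation carriers of the basolateral membrane, which take up metformin, cisplatin and creatinine, Slc22a2 was called in UIRI. Slc22a2 (OCT2), the main organic cation carrier of kidney, was at 74.3, 38.1 and 69.6 FPKM in kidneys labelled CD44 knockout, against 26.7, 25.7 and 27.2 FPKM in wild-type UIRI kidneys (log2 fold change 1.11, standard error 0.24, adjusted p = 0.0490). After UUO it was at 79.1, 76.4 and 41.5 FPKM in β-catenin knockout kidneys, against 35.9, 36.7 and 35.2 FPKM in wild-type kidneys, where knockout replicate 3 lay closest to the wild-type libraries (log2 fold change 0.80, standard error 0.24, adjusted p = 0.0766, and adjusted p = 0.00563 without that replicate). Slc22a3 (OCT3) lies 76427 bases from it on chromosome 17 and was nearly silent, at 0.0696 FPKM or less.

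The carnitine carriers lie side by side on chromosome 11, and Slc22a5 was called in both comparisons. Slc22a5 (OCTN2), which reabsorbs carnitine with sodium and whose loss causes systemic carnitine deficiency, was at 76.7, 84.5 and 60.8 FPKM in β-catenin knockout kidneys, against 35.3, 28.04 and 45.3 FPKM in wild-type UUO kidneys (log2 fold change 1.02, standard error 0.20, adjusted p = 0.0253). It was at 61.8, 47.01 and 64.01 FPKM in kidneys labelled CD44 knockout, against 34.8, 28.01 and 37.3 FPKM in wild-type UIRI kidneys (log2 fold change 0.77, standard error 0.16, adjusted p = 0.0431). Slc22a4 (OCTN1), the ergothioneine carrier, was at 13.2, 10.7 and 14.1 FPKM in kidneys labelled CD44 knockout, against 7.42, 6.60 and 7.03 FPKM in wild-type UIRI kidneys, and was called (log2 fold change 0.76, standard error 0.11, adjusted p = 0.0267). In UUO, where it was uncalled, Slc22a4 was at 9.22, 10.5 and 10.4 FPKM in β-catenin knockout kidneys, against 9.08, 6.21 and 7.17 FPKM in wild-type kidneys (log2 fold change 0.39, adjusted p = 0.124). Slc22a21 (OCTN3 of mouse), which lies between these genes and 2790 bases from Slc22a4, was at 1.19, 2.64 and 2.05 FPKM in kidneys labelled CD44 knockout, against 2.09, 1.76 and 1.61 FPKM in wild-type UIRI kidneys (log2 fold change 0.04, adjusted p = 0.916). Its log2 fold change in UUO was 0.21 (adjusted p = 0.422). Slc22a21 shares 15.9% of its 75-base stretches with Slc22a5. Slc22a16, the carnitine carrier of testis, had 1 read in 1 library. The UUO call of Slc22a5 was lost without knockout replicates 1 and 2 and wild-type replicates 1 and 2 (adjusted p = 0.0776, 0.0760, 0.0729 and 0.0813).

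Of the other Slc22a genes, Slc22a18, an imprinted orphan carrier, was at 155, 148 and 93.7 FPKM in β-catenin knockout kidneys, against 56.1, 53.4 and 48.9 FPKM in wild-type UUO kidneys (log2 fold change 1.28, standard error 0.20, adjusted p = 0.0155). Of single libraries left out, only wild-type replicate 2 ended that call (adjusted p = 0.0657). After UIRI Slc22a18 was at 125, 55.3 and 113 FPKM in kidneys labelled CD44 knockout, against 43.4, 51.9 and 48.2 FPKM in wild-type UIRI kidneys, uncalled (log2 fold change 0.93, adjusted p = 0.102, and 0.00368 without replicate 2). Slc22a23, an orphan carrier, was at 10.4, 11.6 and 10.99 FPKM in kidneys labelled CD44 knockout, against 6.27, 4.78 and 6.15 FPKM in wild-type UIRI kidneys (log2 fold change 0.84, standard error 0.11, adjusted p = 0.0267), with replicate 2 the highest of its group. It was at 20.4, 12.1 and 11.7 FPKM in β-catenin knockout kidneys, against 8.48, 7.55 and 8.59 FPKM in wild-type UUO kidneys (log2 fold change 0.74, adjusted p = 0.0627). Slc22a17, a receptor for lipocalin-2 found in distal segments, was at 9.25, 8.81 and 7.82 FPKM in β-catenin knockout kidneys, against 7.31, 5.34 and 4.72 FPKM in wild-type UUO kidneys (adjusted p = 0.0763). Slc22a17 after UIRI was at 9.68, 13.8 and 11.5 FPKM in kidneys labelled CD44 knockout, against 11.7, 13.7 and 10.6 FPKM in wild-type UIRI kidneys (adjusted p = 0.876). Slc22a15 was uncalled in both, at log2 fold changes of −0.20 in UUO and −0.03 in UIRI, and Slc22a14 was under the filter in both.

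**Figure D2:**
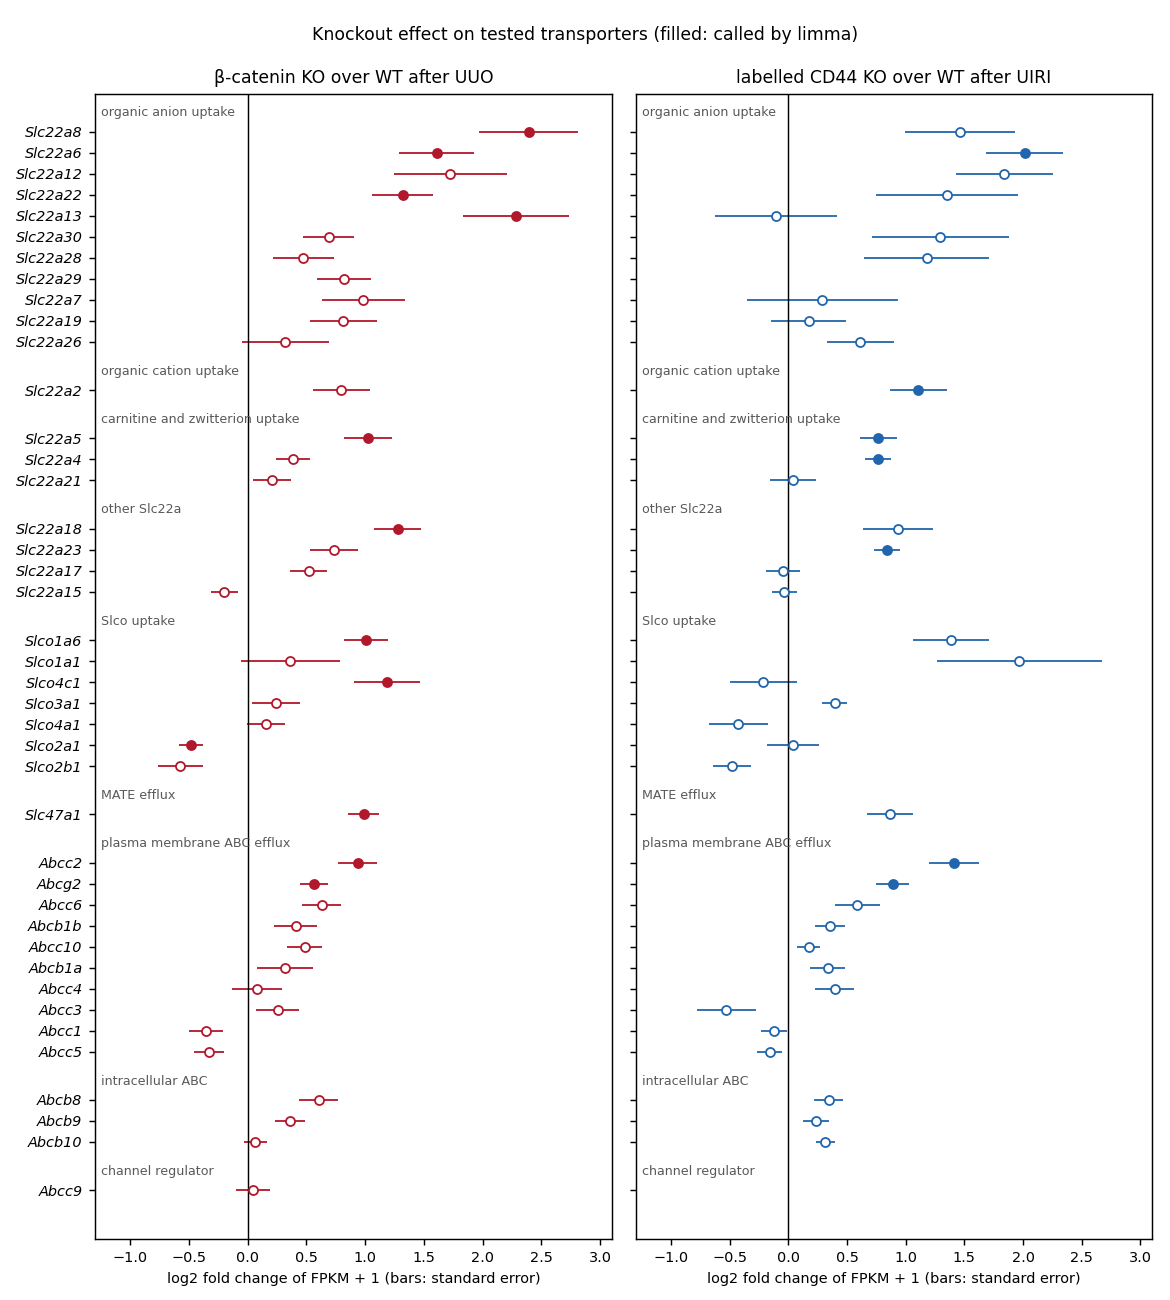
Log2 fold change of FPKM + 1 (horizontal axis; points, with the standard error as bars) of transporters tested, knockout over wild type, for UUO on the left and UIRI on the right, grouped by role down the page, with filled points for genes called by limma. Points of the organic anion class reach 2.39 in UUO and 2.02 in UIRI, while those of the intracellular ABC class lie between 0.06 and 0.60 in UUO and between 0.24 and 0.34 in UIRI.

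The Slco genes, which encode carriers of bile salts, steroid conjugates, thyroid hormones and prostaglandins, had calls in both directions in UUO. Slco1a6 was at 38.4, 32.3 and 25.1 FPKM in β-catenin knockout kidneys, against 14.4, 18.2 and 13.3 FPKM in wild-type UUO kidneys (log2 fold change 1.01, standard error 0.19, adjusted p = 0.0211). Only leaving out knockout replicate 3 kept that call (adjusted p = 0.0128, against 0.0537 to 0.0663 without each other library). In kidneys labelled CD44 knockout it was at 34.6, 14.5 and 34.1 FPKM, against 9.96, 7.73 and 10.3 FPKM in wild-type UIRI kidneys, without overlap and uncalled (log2 fold change 1.39, adjusted p = 0.0551, and 0.00317 without replicate 2 labelled CD44 knockout). Slco4c1, the digoxin and thyroid hormone carrier of the basolateral membrane, was at 2.40, 3.04 and 3.68 FPKM in β-catenin knockout kidneys, against 1.34, 0.141 and 1.04 FPKM in wild-type UUO kidneys (log2 fold change 1.19, standard error 0.28, adjusted p = 0.0399). This low-level gene lost its call without any 1 of the 6 libraries (adjusted p between 0.0521 and 0.107). The 1 gene called lower was Slco2a1, the prostaglandin transporter, at 5.38, 5.11 and 5.87 FPKM in β-catenin knockout kidneys, against 8.37, 8.34 and 7.41 FPKM in wild-type UUO kidneys (log2 fold change −0.49, standard error 0.10, adjusted p = 0.0305). Its groups did not overlap, and the adjusted p was 0.0306 without knockout replicate 3 and 0.0521 to 0.105 without each other library.

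The promoter of Slco1a6 is shown because it held ATCAAAG, the element of the TCF/LEF factors that β-catenin binds. RefSeq's promoter table (GRCm38.p6) had an entry for 50 of the 62 members (59 promoters), and the 250 bases before each start were searched on both strands. ATCAAAG was in 2 of the 59, those of Slco1a5 and Slco1a6, and in 3.21% of all 32851 promoters of the same length. CAAAGTCCA, an HNF4 response element, was in none of the 59 and in 0.38% of all. The matches did not overlap, and a match describes letters and not a bound site. Both of these RefSeq promoters lie inside the genes as annotated for the FPKM, not before them. Those genes run from 142085761 to 142208521 (Slco1a6) and from 142234227 to 142322981 (Slco1a5). The 29 bases around the match in Slco1a6 (chr6:142186220-142186248, minus strand, 81 bases before the start), on the strand of the gene and with the element in capitals, were as follows:
Slco1a6: gaaggccaggaATCAAAGttcaatctagc

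After UIRI Slco2a1 was at 3.31, 6.25 and 5.60 FPKM in kidneys labelled CD44 knockout, against 6.05, 4.14 and 4.26 FPKM in wild-type kidneys, with overlap (log2 fold change 0.04, adjusted p = 0.937). Slco2b1, a broad carrier that macrophages and endothelium also express, was at 7.17, 7.08 and 11.4 FPKM in β-catenin knockout kidneys, against 14.9, 12.5 and 11.7 FPKM in wild-type UUO kidneys (log2 fold change −0.58, adjusted p = 0.0953). Slco2b1 after UIRI was at 6.52, 4.66 and 4.56 FPKM in kidneys labelled CD44 knockout, against 8.03, 6.34 and 8.70 FPKM in wild-type UIRI kidneys (log2 fold change −0.48, adjusted p = 0.112). Slco3a1, the most abundant Slco gene of wild-type kidneys, was at 23.7, 30.6 and 18.5 FPKM in β-catenin knockout kidneys, against 16.6, 19.7 and 24.2 FPKM in wild-type UUO kidneys (adjusted p = 0.471). Slco3a1 after UIRI was at 20.1, 15.9 and 19.2 FPKM in kidneys labelled CD44 knockout, against 14.7, 13.1 and 13.3 FPKM in wild-type UIRI kidneys (adjusted p = 0.0746). Slco4a1, a thyroid hormone carrier, was at 5.49, 11.01 and 8.45 FPKM in kidneys labelled CD44 knockout, against 9.53, 14.6 and 9.88 FPKM in wild-type UIRI kidneys (adjusted p = 0.322), and its log2 fold change in UUO was 0.15 (adjusted p = 0.568). Slco1a1, an organic anion carrier under androgen control in mouse kidney, was at 14.9, 1.03 and 8.72 FPKM in kidneys labelled CD44 knockout, against 0.440, 1.14 and 0.709 FPKM in wild-type UIRI kidneys, so that replicate 2 stood with the wild types (log2 fold change 1.97, adjusted p = 0.132). In UUO its groups overlapped (log2 fold change 0.36). The other 7 Slco genes were under the filter in both comparisons. Slco1a4, Slco1a5, Slco1c1, Slco5a1 and the liver carrier Slco1b2 were at 0.272 FPKM or less. Slco6c1 and Slco6d1, which are known from testis, had no read in any library.

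Among efflux pumps, Slc47a1 (MATE1), the luminal proton and organic cation antiporter that completes the secretion of metformin, was the most abundant. It was at 158, 157 and 165 FPKM in β-catenin knockout kidneys, against 88.02, 69.8 and 83.7 FPKM in wild-type UUO kidneys (log2 fold change 0.99, standard error 0.13, adjusted p = 0.0116). No single library left out ended this call (adjusted p = 0.0478 at most). In kidneys labelled CD44 knockout it was at 151, 106 and 171 FPKM, against 86.7, 66.6 and 77.7 FPKM in wild-type UIRI kidneys, without overlap and just short of a call (log2 fold change 0.86, standard error 0.19, adjusted p = 0.0507, and 0.00850 without replicate 2 labelled CD44 knockout). Slc47a2 (MATE2) lies 540 bases from Slc47a1 on the same strand of chromosome 11 and was at 0.408, 0.286 and 0.232 FPKM in β-catenin knockout kidneys, against 0.319, 0.154 and 0.122 FPKM in wild-type UUO kidneys. Slc47a2 after UIRI was at 0.310, 0.0751 and 0.210 FPKM in kidneys labelled CD44 knockout, against 0.394, 0.247 and 0.271 FPKM in wild-type UIRI kidneys, under the filter in both.

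The ABC pumps of the brush border that were called were Abcc2 and Abcg2, in both comparisons. Abcc2 (MRP2), which exports glutathione and glucuronide conjugates, was at 51.1, 40.6 and 35.1 FPKM in β-catenin knockout kidneys, against 21.9, 18.7 and 23.8 FPKM in wild-type UUO kidneys (log2 fold change 0.94, standard error 0.17, adjusted p = 0.0190). It was at 36.2, 46.4 and 64.7 FPKM in kidneys labelled CD44 knockout, against 19.5, 14.7 and 18.1 FPKM in wild-type UIRI kidneys (log2 fold change 1.41, standard error 0.21, adjusted p = 0.0270). Abcg2 (BCRP), a urate and drug pump, was at 41.1, 48.2 and 39.7 FPKM in β-catenin knockout kidneys, against 26.8, 30.9 and 28.4 FPKM in wild-type UUO kidneys (log2 fold change 0.57, standard error 0.12, adjusted p = 0.0305). Without each library but knockout replicate 3 its call was lost (adjusted p between 0.0775 and 0.0986). It was at 42.6, 30.4 and 42.7 FPKM in kidneys labelled CD44 knockout, against 19.9, 19.5 and 20.9 FPKM in wild-type UIRI kidneys (log2 fold change 0.89, standard error 0.14, adjusted p = 0.0288). Abcc2 in UUO lost its call without knockout replicate 2, wild-type replicate 1 and wild-type replicate 2 (adjusted p = 0.0556, 0.0566 and 0.0737).

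The other plasma membrane pumps were uncalled in both comparisons. Abcc4 (MRP4), the luminal pump for cyclic nucleotides and urate, was at 25.4, 15.03 and 19.4 FPKM in β-catenin knockout kidneys, against 16.5, 16.5 and 23.1 FPKM in wild-type UUO kidneys (log2 fold change 0.08, adjusted p = 0.842). Abcc4 after UIRI was at 10.7, 15.7 and 16.5 FPKM in kidneys labelled CD44 knockout, against 11.1, 9.22 and 11.1 FPKM in wild-type UIRI kidneys (log2 fold change 0.39, adjusted p = 0.188). The P-glycoprotein pair stayed low: Abcb1b was at 3.37, 3.40 and 2.35 FPKM in β-catenin knockout kidneys, against 1.89, 1.55 and 2.72 FPKM in wild-type UUO kidneys. Abcb1a was at 2.89, 1.93 and 1.31 FPKM in β-catenin knockout kidneys, against 1.08, 1.13 and 2.08 FPKM in wild-type UUO kidneys. Of the 75-base stretches of Abcb1b and Abcb1a, 13.4% and 12.7% are shared with other genes, mainly each other. In UIRI both had all libraries labelled CD44 knockout above all wild-type libraries and were uncalled (adjusted p = 0.131 for Abcb1b and 0.205 for Abcb1a). The widely expressed pumps Abcc1 (MRP1) and Abcc5 (MRP5) had log2 fold changes of −0.36 and −0.33 in UUO, where all 3 knockout libraries lay below the wild types, and of −0.12 and −0.16 in UIRI, all uncalled. The basolateral pump Abcc3 was at 0.25 in UUO and −0.53 in UIRI, Abcc6 at 0.63 and 0.59, and Abcc10 at 0.49 and 0.17, likewise as uncalled log2 fold changes. Abcb4, Abcb5, Abcc12 and the bile salt pump Abcb11 of liver were under the filter in both, at 0.185 FPKM or less.

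The members with neither role held no call. Of the ABC proteins of mitochondria, Abcb8, part of a mitochondrial potassium channel, was at 14.6, 11.9 and 9.04 FPKM in β-catenin knockout kidneys, against 7.51, 6.84 and 7.66 FPKM in wild-type UUO kidneys (log2 fold change 0.60, adjusted p = 0.0615). Abcb10, which acts in heme synthesis, was at 7.49, 6.55 and 7.08 FPKM in β-catenin knockout kidneys, against 6.70, 6.72 and 6.63 FPKM in wild-type UUO kidneys (adjusted p = 0.694). In UIRI the log2 fold changes of Abcb8 and Abcb10 were 0.34 and 0.32, and Abcb9, of lysosomes, was at 0.36 in UUO and 0.24 in UIRI. Abcc9, the vascular sulfonylurea receptor, was at 1.24, 0.991 and 1.38 FPKM in β-catenin knockout kidneys, against 1.35, 0.925 and 1.13 FPKM in wild-type UUO kidneys (adjusted p = 0.857). The islet receptor Abcc8 was at 0.101, 0 and 0.0974 FPKM in β-catenin knockout kidneys, against 0.0892, 0.0660 and 0.0582 FPKM in wild-type UUO kidneys. Abcb6 was under the filter in both. With FPKM rescaled to TPM, 3 of the 6 genes then tested in this group were positive in UUO, against 5 of 5 as deposited, and with voom 2 of 5 were. The median log2 fold change of the group there was 0.07 as deposited, 0.10 with TPM and −0.04 with voom. The number of positive genes thus changed with the processing, and the reason was not tested.

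Set against each other, uptake genes had larger median changes than efflux genes in both comparisons. By family, this held for the Slc22a genes and not for the Slco genes. In UUO 9 of 27 uptake genes tested were higher and 1 lower, with a median log2 fold change of 0.80, and 3 of 11 efflux genes were higher, with a median of 0.41. In UIRI 6 of 26 uptake genes were higher, with a median of 0.77, and 2 of 11 efflux genes, with a median of 0.35. The Slc22a medians were 0.82 in UUO (20 genes tested) and 0.84 in UIRI (19 genes tested). The Slco medians were 0.24 in UUO and 0.04 in UIRI (7 genes tested in each), below the efflux medians. The uptake genes include Slc22a29 in UUO and Slc22a26 in UIRI, which passed the filter only through the knockout libraries. A filter of 1 FPKM leaves both out, and with it the uptake medians were 0.77 in UUO and 0.84 in UIRI. The efflux medians were then 0.41 and 0.37. Summed over all 39 genes, uptake came to 1305, 1122 and 659 FPKM in β-catenin knockout kidneys, against 430.3, 426 and 417 FPKM in wild-type UUO kidneys (1029 ± 333, against 424 ± 6.97, SD, n = 3 each), a ratio of 2.42. Summed over the 16 efflux genes, the levels were 307, 287 and 287 FPKM in β-catenin knockout kidneys, against 181, 158 and 188 FPKM in wild-type UUO kidneys, a ratio of 1.67. The difference between uptake and efflux was not clear of the replicate spread. The uptake sum was 4.25, 3.91 and 2.30 times the efflux sum in β-catenin knockout kidneys, against 2.38, 2.71 and 2.22 times in wild-type UUO kidneys, and the groups overlapped through replicate 3.

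After UIRI the uptake sum was 1226, 593 and 1309.6 FPKM in kidneys labelled CD44 knockout, against 379.9, 396 and 420.2 FPKM in wild-type kidneys, a ratio of 2.61. The efflux sum was 264, 223 and 321 FPKM in kidneys labelled CD44 knockout, against 163, 132 and 155 FPKM in wild-type kidneys, a ratio of 1.80. Here too the uptake sum over the efflux sum overlapped, at 4.65, 2.66 and 4.08 in kidneys labelled CD44 knockout, against 2.34, 2.99 and 2.71 in wild-type kidneys. A few genes carried each sum. Slc22a12 made up 25.2% of the uptake sum in β-catenin knockout kidneys, against 15.8% in wild-type UUO kidneys. Its share was 32.4% in kidneys labelled CD44 knockout, against 21.0% in wild-type UIRI kidneys. Without it the uptake ratios were 2.15 in UUO and 2.24 in UIRI. Slc47a1 made up 54.5% of the efflux sum in β-catenin knockout kidneys, against 45.9% in wild-type UUO kidneys. Without it the efflux ratios were 1.41 in UUO and 1.74 in UIRI.

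**Figure D3:**
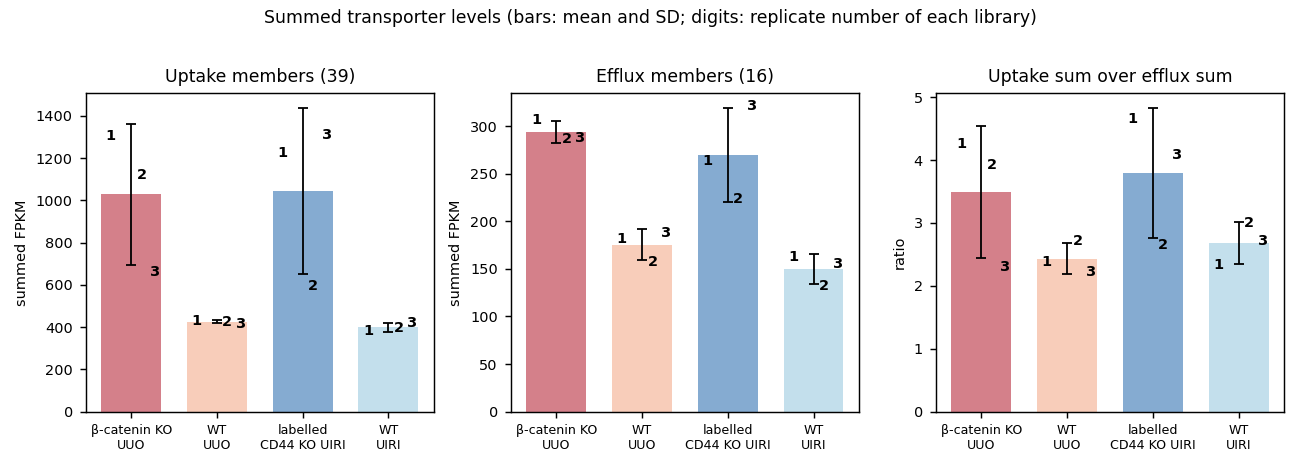
Summed FPKM of the 39 uptake genes (left), of the 16 efflux genes (middle) and their ratio (right) for the 4 groups, with bars for the mean, whiskers for the SD and digits for the replicate number of each library. Both sums of each knockout group lie above those of its wild types, while the ratios overlap through replicate 3 of the β-catenin knockouts at 2.30 and replicate 2 labelled CD44 knockout at 2.66.

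Markers of the proximal tubule, the main site of these carriers, moved with them. Of 12 proximal tubule markers 8 were higher in UUO and 0 lower (median log2 fold change 1.10), and 3 were higher in UIRI and 0 lower (median 1.13). Without Kap, which outweighs the rest, the markers summed to 2796 to 3624 FPKM in β-catenin knockout kidneys, against 1129 to 1331 FPKM in wild-type UUO kidneys. After UIRI they summed to 1844 to 3754 FPKM in kidneys labelled CD44 knockout, against 1123 to 1343 FPKM in wild-type UIRI kidneys. As a share of that marker sum, uptake was 36.0%, 34.4% and 23.6% in β-catenin knockout kidneys, against 38.1%, 35.2% and 31.3% in wild-type UUO kidneys. The uptake share was 32.7%, 32.2% and 47.4% in kidneys labelled CD44 knockout, against 29.7%, 35.3% and 31.3% in wild-type UIRI kidneys, so that neither pair of groups was apart. The efflux share was 8.46%, 8.80% and 10.3% in β-catenin knockout kidneys, against 16.05%, 13.03% and 14.1% in wild-type UUO kidneys, lower in each library. In the other comparison it was 7.03%, 12.1% and 11.6% in kidneys labelled CD44 knockout, against 12.7%, 11.8% and 11.5% in wild-type UIRI kidneys.

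Markers of macrophages and fibroblasts had calls in the other direction. Of 10 macrophage markers 0 were higher and 8 lower in UUO, their sum lying between 609 and 698 FPKM in β-catenin knockout kidneys, against 1157 to 1404 FPKM in wild-type kidneys. In UIRI 5 were lower and 0 higher, their sum lying at 812 to 1425 FPKM in kidneys labelled CD44 knockout, against 2109 to 2172 FPKM in wild-type kidneys. Of 7 fibroblast markers 4 were lower in UUO (72.8 to 219 FPKM in β-catenin knockout kidneys, against 222 to 275 FPKM in wild-type kidneys) and 2 in UIRI (130.4 to 297 FPKM in kidneys labelled CD44 knockout, against 254 to 425 FPKM in wild-type kidneys). Of 9 markers of thick limb, distal tubule and collecting duct 2 were higher in UUO and 0 in UIRI. Of 7 endothelial markers 1 was lower in UUO and 0 in UIRI. Of 10 hepatocyte markers, with Alb and Ahsg near 0, 2 were higher in UUO, the plasma proteins Ttr and Serpina1a, and 0 in UIRI. Of 6 injury markers 1, Havcr1 (KIM-1), was lower in UUO and 0 changed in UIRI. The part of these cell mixtures in the transporter results was not tested.

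**Figure D4:**
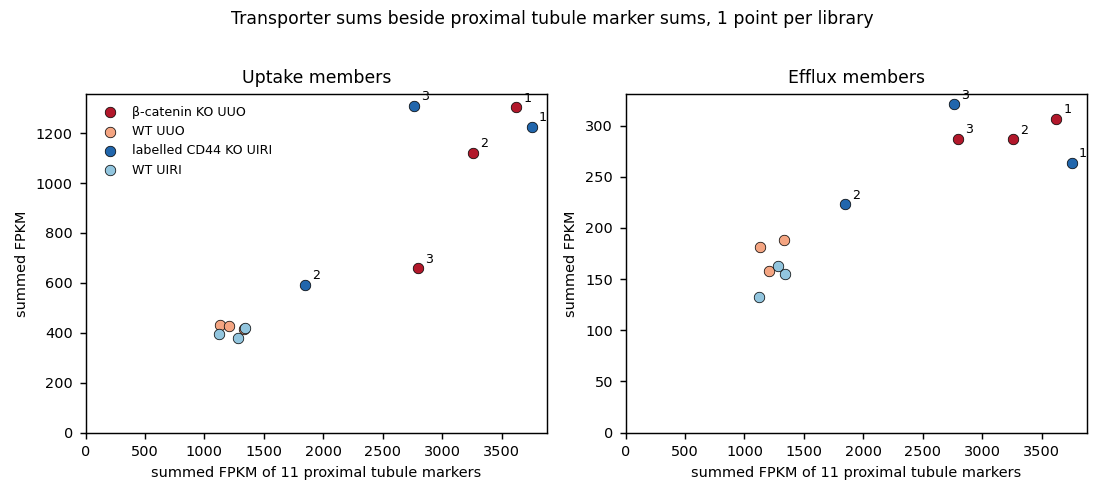
Summed FPKM of uptake genes (left, vertical axis) and efflux genes (right) against the summed FPKM of 11 proximal tubule markers (horizontal axis), 1 point per library in the colours of the 4 groups, with replicate numbers beside the knockout points. The β-catenin knockout points lie at 2796 to 3624 FPKM of markers, against 1129 to 1331 FPKM for wild-type UUO points, and points labelled CD44 knockout at 1844 to 3754 FPKM, against 1123 to 1343 FPKM for wild-type UIRI points.

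Factors that regulate these carriers and proteins that work with them had calls in the same direction. Of 11 regulators, 3 of 10 tested were higher in UUO and 3 in UIRI, and 0 were lower in either. Hnf4a, the nuclear receptor that drives proximal tubule genes, was at 112, 112 and 113 FPKM in β-catenin knockout kidneys, against 54.8, 45.3 and 74.1 FPKM in wild-type UUO kidneys (log2 fold change 0.97, adjusted p = 0.0227). Hnf4a after UIRI was at 130.2, 114 and 139 FPKM in kidneys labelled CD44 knockout, against 67.4, 45.2 and 65.5 FPKM in wild-type UIRI kidneys (log2 fold change 1.11, adjusted p = 0.0279). Rxra, the shared partner of many nuclear receptors, was higher in both (log2 fold change 0.73 in UUO and 0.64 in UIRI, adjusted p = 0.0260 and 0.0305). Nr1h4, the bile acid receptor FXR, was higher in UUO (log2 fold change 1.13, adjusted p = 0.0245). In UUO Ppara, the fatty acid receptor, was at 8.98, 8.78 and 11.7 FPKM in β-catenin knockout kidneys, against 3.57, 1.55 and 7.62 FPKM in wild-type kidneys (adjusted p = 0.0941). In UIRI Ppara was at 5.84, 2.78 and 6.52 FPKM in kidneys labelled CD44 knockout, against 3.90, 1.54 and 3.31 FPKM in wild-type kidneys (adjusted p = 0.283).

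Of 13 partners, which set the ion gradients, anchor the carriers at the brush border or share their substrates, 6 were higher and 0 lower in each comparison. Pdzk1, the scaffold that binds URAT1 and other luminal carriers, was at 72.8, 83.4 and 54.6 FPKM in β-catenin knockout kidneys, against 27.9, 22.9 and 33.9 FPKM in wild-type UUO kidneys (log2 fold change 1.28, adjusted p = 0.0153). Pdzk1 was also called higher in UIRI (log2 fold change 1.25, adjusted p = 0.0392). Slc9a3 (NHE3), the sodium and proton exchanger, was higher in both (log2 fold change 1.45 in UUO and 0.80 in UIRI, adjusted p = 0.0229 and 0.0267). Slc13a3 (NaDC3), which loads the cell with the dicarboxylates that OAT1 and OAT3 exchange, was at 94.4, 61.6 and 137 FPKM in kidneys labelled CD44 knockout, against 25.6, 22.2 and 26.3 FPKM in wild-type UIRI kidneys (log2 fold change 1.87, adjusted p = 0.0267). Slc13a3 was also called higher in UUO (log2 fold change 1.74, adjusted p = 0.0419). Slc13a2 (NaDC1), which reabsorbs citrate at the brush border, was higher in both (log2 fold change 0.96 in UUO and 0.69 in UIRI, adjusted p = 0.0297 and 0.0267). Slc17a1 (NPT1), a luminal urate exporter, was higher in UUO (log2 fold change 0.90, adjusted p = 0.0266), and Slc9a3r1 (NHERF1), an anchoring protein, in UIRI (log2 fold change 0.75, adjusted p = 0.0288).

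Whether the knockout effects of the 2 comparisons differed was tested on all 12 libraries, with each effect taken within its own table. The deleted gene and the injury both change between the comparisons, so that their parts in a difference cannot be told apart. Of 43 transporters tested 0 differed, where 0.00618% of 16193 genes did, with the lowest adjusted p at 0.229, and 5 had an unadjusted p under 0.05. The largest of those differences was that of Slc22a13, at 2.29 in UUO and −0.10 in UIRI (difference 2.39, standard error 0.77, unadjusted p = 0.0102, adjusted p = 0.235). Slco4c1 followed, at 1.19 in UUO and −0.21 in UIRI (difference 1.40, standard error 0.43, unadjusted p = 0.00797, adjusted p = 0.229), and the others were Slc22a17, Abcc3 and Abcb10, with differences of 0.56, 0.78 and −0.25 on the log2 scale. A call in 1 comparison and not in the other, as for Slc22a8, Slc22a18, Slc22a2 or Slc22a23, is thus no shown difference between them.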

How the data were processed

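Kidney RNA libraries (NEBNext Ultra kit) were aligned to GRCm38 by the authors, and per the submitters' notes HISAT2 2.0.5, featureCounts 1.5.0-p3 and DESeq2 1.20.0 were used, with the strand setting not given in the sources used here. The authors deposited FPKM per gene for each library, in 1 table per injury. Gene length, an other value in the deposited tables, was used with the FPKM to recover reads, and 100% of nonzero values came out whole within 0.01.

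Knockout was compared with wild type within each table by limma 3.58.1 (R 4.3.3) on log2(FPKM + 1) with an intensity trend, two-sided, over genes averaging 0.5 FPKM or more in the 6 libraries, and called at a Benjamini-Hochberg adjusted p under 0.05 over all genes tested. The tables were made separately, so levels were not compared between them. Because of the added 1, fold changes of low genes are understated. The difference between the knockout effects was tested over the genes and libraries of both tables. An exact test of 3 against 3 cannot go below p = 0.1, so no single value was tested alone. The libraries came from separate mice.

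Transporters named with every library were those called and the 3 highest of each class in wild types. Slc22a7, Slc22a28, Slc22a30, Slco1a1, Abcb1a and Abcb1b were given by library as well, outside this rule. Of regulators and partners, up to 4 called in each comparison were named by smallest p, with Hnf4a and Ppara. Members and lists were chosen with earlier results of these data known. Motifs were searched in RefSeq promoters (GRCm38.p6), and shared 75-base stretches in annotated transcripts. The fit was tested on simulated data. Alternatives were pseudocount 0.1, no filter or 1 FPKM, rescaling to TPM, no trend, voom on the recovered reads, a replicate block and each library left out. Amino acid sequences were not used here, and some results are not reported here.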

Additional observations from a re-analysis of the deposited data

How the results depend on the processing

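No transporter called in either comparison changed sign under the 13 alternatives. Of the 12 higher in UUO, 1 (Slc47a1) kept its call in all of them, and of the 8 in UIRI, 0 did. With no filter, which adds silent genes to the test, 2 transporters were higher and 0 lower in UUO and 0 higher in UIRI, with median log2 fold changes of 0.42 (uptake) and 0.25 (efflux) in UUO and 0.23 and 0.17 in UIRI. Rescaled to TPM, 9 were higher in UUO and 5 in UIRI, and the UUO medians were 0.59 and 0.28. With a pseudocount of 0.1 the efflux medians were 0.56 in UUO and 0.61 in UIRI. With voom on the recovered reads 1 was lower in UIRI and the efflux median there was 0.53. The other causes of these shifts were not tested. Leaving out 1 library gave 2 to 16 higher and 0 to 2 lower in UUO and 0 to 20 higher in UIRI, with uptake medians of 0.64 to 0.87 and 0.69 to 0.93 and efflux medians of 0.29 to 0.53 and 0.26 to 0.40. The difference between the knockout effects held 0 calls under every alternative.

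The median log2 fold change of all genes tested was −0.19 (TPM) and −0.12 (voom) in UUO, against 0.01 as deposited. In UIRI it was −0.13 and −0.14, against 0.00. The filter was applied after rescaling to TPM, so that 19472 genes were tested in UUO, against 16166 as deposited. In UIRI these numbers were 19102 and 16113. All-gene calls, 1004 higher and 705 lower in UUO, were 487 and 991 with TPM and 916 and 1441 with voom, and in UIRI 648 and 353 became 153 and 349, and 589 and 1188.

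Whether replicate numbers pair the mice could not be settled with 3 libraries per group. The correlations of same-numbered libraries were 0.08, 0.20 and 0.04 in UUO, against −0.16 to 0.08 for libraries of different numbers. In UIRI they were −0.14, −0.03 and −0.03, against −0.11 to 0.15. With a replicate block 11 transporters were higher and 0 lower in UUO, and 0 were higher in UIRI. Genes averaging under 0.5 FPKM were left out by the filter chosen, and the number of mice limits the precision of all values.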
